A study of Sus scrofa with 2 samples.

Results

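The contractile mesenchyme of pig endometrium at implantation was examined in a single-cell RNA data set of 2 Yorkshire sows aged 3 years. The implantation library, EIS, comes from a sow at day 30 after a successful insemination. The embryo loss library, EL, comes from a sow that had aborted before and had then failed to conceive at 3 consecutive inseminations, with no stage given for the sampling. Pieces of the uterine horns (about 200 mg of tissue) were digested with collagenase II and a further protease, filtered and freed of red cells, and transcripts were counted as unique molecular identifiers (UMIs) per cell barcode. Members were the EIS barcodes with at least 500 UMIs and 300 genes, at least 10 UMIs of COL1A1, COL3A1 and DCN together, and at least 4 UMIs of ACTA2, ACTG2 and DES together. These limits gave 789 members of 8669 kept EIS barcodes (9.10%, exact Clopper-Pearson 95% interval 8.50 to 9.73) and of 19466 kept barcodes in both libraries. Members were thus selected on the UMI counts of these 6 genes, whose values are given below as a description only.

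Contractile mesenchyme holds smooth muscle cells and myofibroblasts, which pair smooth muscle actins with calponin, transgelin, tropomyosins and the intermediate filament protein desmin, and which also lay down fibrillar collagen. In the uterus such cells form the myometrium and the walls of arteries, and stromal fibroblasts can take up part of the programme. At this stage of pig pregnancy the conceptus lies against the uterine surface, and its membranes carry a mesenchyme of their own. Stromal fibroblasts of the endometrium are known for receptors of progesterone and estrogen and for the nuclear receptor NR2F2, whereas HAND1, GATA6 and the imprinted genes MEST, DLK1 and PEG10 are known from embryonic and extraembryonic mesoderm.

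With 1 library from 1 sow on each side, the sow, the stage, the pregnancy status and the library cannot be told apart, and no test between groups is possible. All intervals below are exact 95% intervals that cover counting error only, and the share that a count of 0 allows is given as 3 counts of the total. Kept EIS barcodes had a median of 2245 UMIs and kept EL barcodes 2301. The libraries share 27 barcodes, 3 of them among the members. Levels are UMI counts scaled to a common total (CPM) of summed barcodes. They come from the 3′ ends of transcripts and are compared between groups of barcodes, not between genes. Reads of the near-identical actins ACTA2, ACTG2 and ACTG1 could be exchanged in the authors' counting, so the split among them is uncertain. MYH11, LMOD1, PDGFRB, NOTCH3, IGF2 and XIST were not matched by symbol among the features and were not analysed here.

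The EL library gave no barcode under the same limits. Of its 10797 kept barcodes 0 qualified, which allows a share of up to 0.0278%, and of its 123 barcodes that passed the collagen limit 0 reached the actin limit, which allows up to 2.44%. Over all kept barcodes ACTA2, ACTG2 and DES summed to 54 UMIs in EL and 19183 in EIS, and no EL barcode held more than 3 of them. DCN encodes a proteoglycan but is counted here with the collagen genes. Of the 123 EL barcodes, 121 held a DCN UMI, 41 a COL1A1 UMI and 44 a COL3A1 UMI, and 99 held the epithelial keratin KRT8. The bound of 2.44% thus rests on barcodes of which only a minority held COL1A1 or a minority COL3A1. The collagen genes made up 0.0178% of EL and 0.692% of EIS UMIs, so the EL library also held little collagen-bearing mesenchyme in which actin could have been seen.

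**Figure D1:**
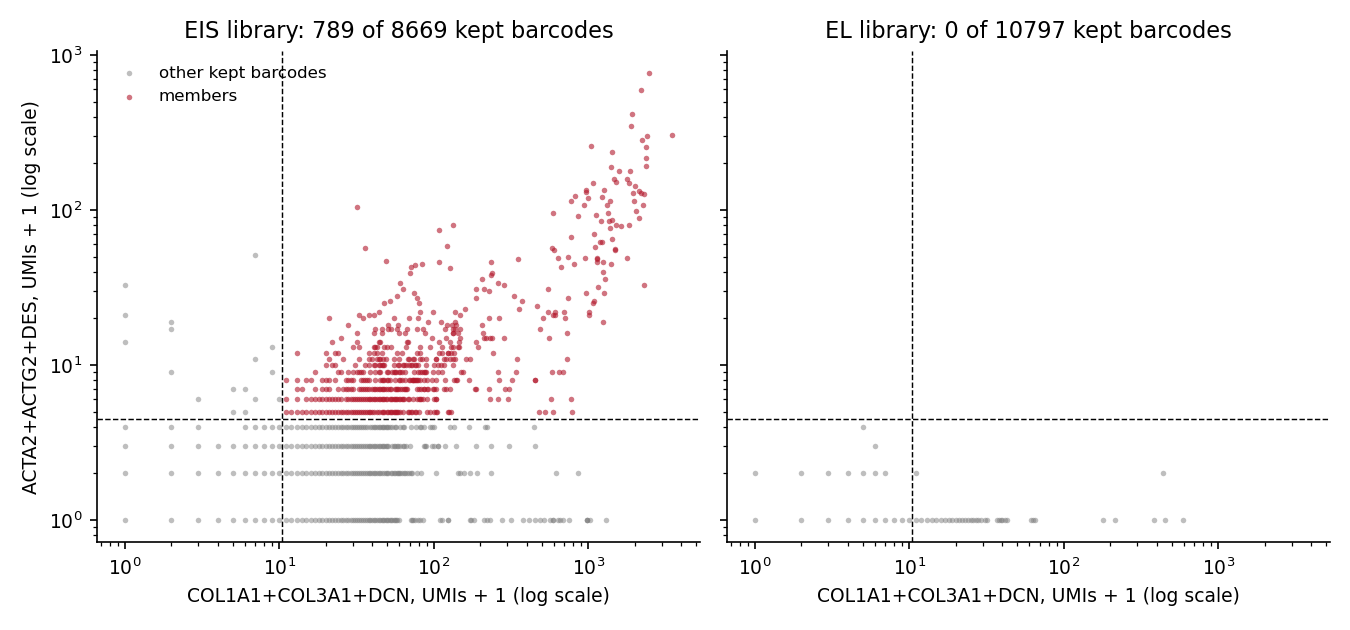
Each point is a combination of UMI sums seen in kept barcodes, with COL1A1, COL3A1 and DCN on the horizontal axis and ACTA2, ACTG2 and DES on the vertical axis, both plus 1 and on log scales. Dashed lines mark the limits of 10 and 4. The 789 EIS members (red) form a dense group at low sums and a separate cloud at high collagen sums, and no EL barcode lies above the actin limit.

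The members were not 1 kind of barcode. The 3 collagen genes made up a median of 1.29% of a member's UMIs, and 140 members lay below the 0.692% of the EIS library as a whole. By collagen share, 55 members were under 0.5%, 223 between 0.5 and 1%, 258 between 1 and 2%, 121 between 2 and 4%, and 132 (16.7%, 14.2 to 19.5) at 4% or more. Over these 5 ranges SLPI, a protease inhibitor secreted by the uterine glands of pregnant pigs, took 12.7, 11.2, 12.1, 7.15 and 0.849% of UMIs. The trophoblast transcript PAG6, which encodes a pregnancy-associated glycoprotein, stood at 1863, 1309.8, 1312, 180.1 and 16.4 CPM, and the keratin KRT18 of epithelial cells at 905, 967, 726, 248 and 32.8 CPM. In the kept EIS barcodes outside the members SLPI took 16.8% of UMIs, so it was not particular to members. The 1725 EIS barcodes that passed the collagen limit with an actin and desmin sum under 4 are called low-actin mesenchyme, by these limits only. Members under 2% thus carried gland and trophoblast transcripts at levels near those of low-actin mesenchyme (SLPI 133878 CPM, PAG6 1260.2 CPM), those between 2 and 4% less, and those at 4% or more little of either. TAGLN (transgelin, an actin cross-linking protein of smooth muscle) ran the other way, at 403, 553, 640.1, 751 and 1576 CPM, as did TPM2 (a tropomyosin) at 111, 236, 375, 967 and 1734 CPM. The 657 members under 4% together held TAGLN at 598 against 288 CPM in low-actin mesenchyme, TPM2 at 383 against 125 CPM, MYL9 at 119 against 55.7 CPM and CNN1 at 29.8 against 6.55 CPM. Contractile genes outside the rule were higher in them too, beside the transcripts of other cell types. The actin limit formed both groups and these genes share a programme with the actins, so this is a description only. Median depth over the 5 ranges was 6329, 5258, 3694, 2684 and 14177.5 UMIs. A limit of 4 UMIs asks a larger actin share of a shallower barcode, and the part of depth in the TAGLN and TPM2 values was not tested.

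**Figure D2:**
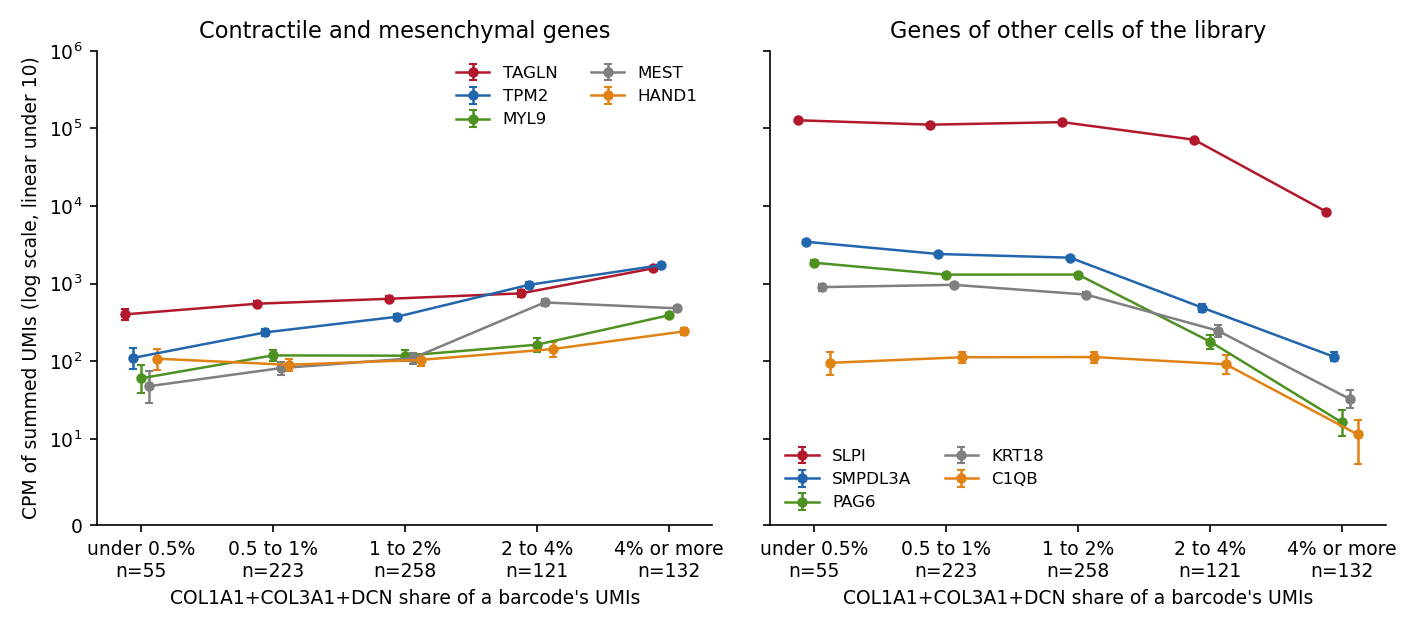
Levels of 10 genes in members ordered by the collagen share of their UMIs, in CPM on a log scale that is linear under 10. Points are summed barcodes of each range and bars are exact Poisson 95% intervals for counting error. TAGLN, TPM2 and MYL9 are highest and SLPI, SMPDL3A, PAG6, KRT18 and C1QB lowest in the 132 members at 4% or more.

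Barcodes just inside and just outside the actin limit were close in SLPI, differed in TAGLN and lay further apart in MEST. The 147 barcodes just inside it, with 4 actin and desmin UMIs, had 483 CPM of TAGLN (430 to 540), 144 CPM of MEST and 11.96% of UMIs from SLPI. The 223 collagen-positive barcodes just outside, with 3, had 374 CPM of TAGLN (335 to 417), 57.5 CPM of MEST and 12.1% from SLPI. On the collagen side 4 barcodes sat at a sum of 10 and 2 at a sum of 9. Of the 601 EIS barcodes with the highest Scrublet doublet scores (0.8% per 1000 barcodes), 13 were members and 0 were among the 132 collagen-rich ones, which allows up to 2.27%. Scrublet's automatic threshold marked 0 barcodes and could not be used.

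Clustering of the members without the 6 genes of the rule gave 7 subgroups, and the leading genes of most were those of other cell types. Leading genes describe the clusters and were not tested. Subgroup 1 (165 barcodes) was led by BEX4, CTBS, THRSP, PAG6, ASS1 and NPL, and subgroup 4 (106) by PPAG3, SLC7A4, CCL8, C1QB, ACP4 and CYP11A1, of which PAG6, PPAG3 and CYP11A1 are trophoblast genes and C1QB is a macrophage gene. Subgroup 3 (108) was led by CRYGS, EMB, UPK3A, DPP4, CDH16 and SULT1E1, genes of epithelial surfaces and hormone metabolism. Subgroup 5 (103) was led by RASD1, SMPDL3B, UABP-2, SLPI, ACP5 and SPP1, which include the gland secretions uteroferrin (ACP5) and its associated basic protein (UABP-2). Subgroup 2 (161) was led by MMP9, SAL1, PLVAP, CTSS, RGS1 and CCL5 and had a median of 1977 UMIs, yet its actin and desmin share of 0.456% was second to that of subgroup 6. None of these 5 subgroups was given a cell type name.

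Subgroup 6 (101 barcodes, median 15931 UMIs) joined high collagen to low gland transcripts. It was led by GEM, SCARA5, CPZ, MMP16, LOX and APOE, its median collagen share was 7.39% and SLPI made up 0.285% of its UMIs. GEM encodes a small GTPase, MMP16 a membrane-bound metalloproteinase and LOX the enzyme that cross-links collagen. SCARA5 was at 433 CPM against 58.0 CPM in the other members and LOX at 986 against 139 CPM. Of the 101 barcodes 99 had a collagen share of at least 4%, and the same 101 barcodes formed a subgroup at resolution 1.0, where the members split into 12. Most of its smooth muscle marker sum (8480.0 CPM) and fibroblast marker sum (97739 CPM) came from the 6 genes of the rule. Without those genes the sums were 2559 and 22676 CPM, against 657 to 1256 and 2604 to 8476 CPM in the other subgroups.

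Subgroup 7 (45 barcodes) had as leading genes NOTUM (115 CPM against 0.987 CPM in the other members), ISM1, DIRAS2, FBN2, SFRP1 (263 against 7.30 CPM) and RSPO3 (738.5 against 21.1 CPM). NOTUM removes the lipid that WNT proteins need, SFRP1 binds WNTs outside the cell and RSPO3 strengthens WNT signalling. MEST stood at 950.2 CPM, against 212 CPM in the other members, while NR2F2 gave 1 UMI. Its median collagen share was 1.38%, 5 of its barcodes were collagen-rich, and it split into groups of 27 and 18 at the finer resolution, the first joined by 2 barcodes each of subgroups 2 and 5. The 18 held 294679 of its 425184 UMIs and most of these transcripts, with RSPO3 at 964 CPM, SFRP1 at 346 CPM and NOTUM at 139 CPM. In the 27 the same genes stood at 229.9, 76.6 and 61.3 CPM, and NOTUM came from 8 UMIs.

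**Figure D3:**
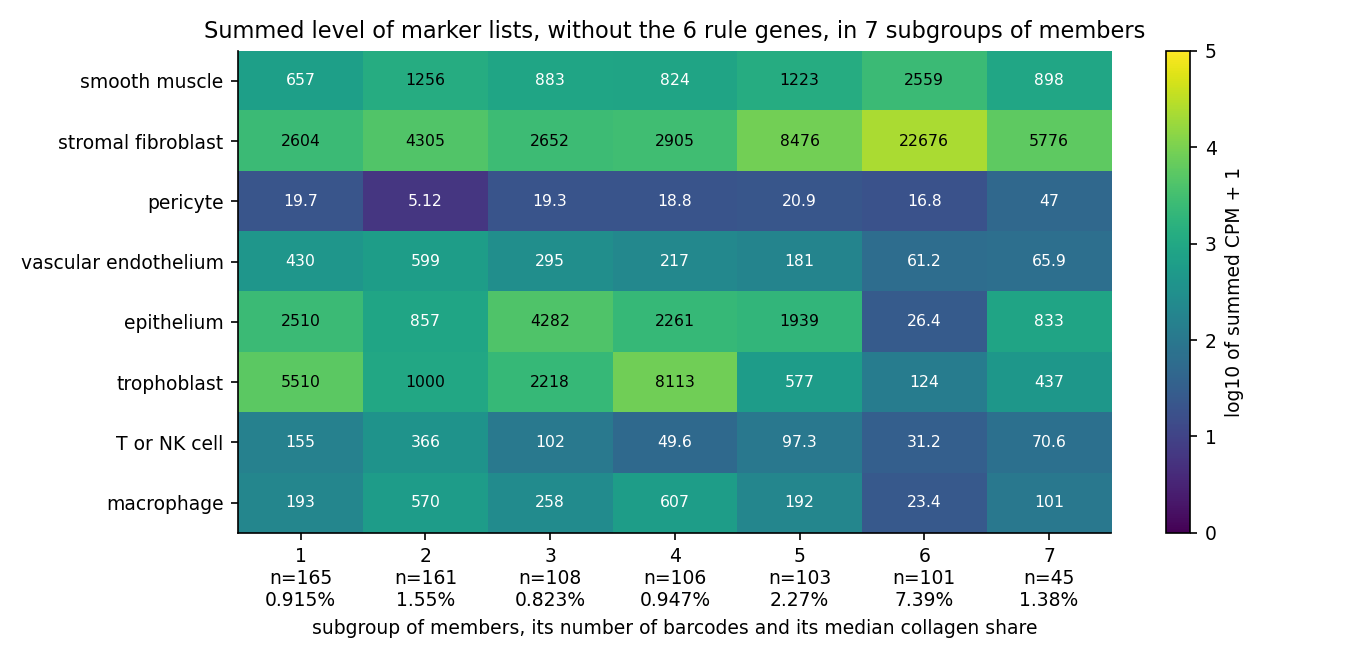
Summed level, in CPM, of 8 lists of cell type markers, without the 6 genes of the rule, in the 7 subgroups of members, with each subgroup's number of barcodes and median collagen share below it. Colour is the log10 of the summed CPM plus 1. Trophoblast and epithelial lists exceed 500 CPM in subgroups 1 to 5, and subgroup 6 combines the highest smooth muscle and fibroblast sums with the lowest epithelial sum.

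Since most members also held transcripts of other cell types, the description that follows turns to the 132 collagen-rich members, those with a collagen share of at least 4%. They were set beside the 69 EIS barcodes of the same collagen share whose actin and desmin sum was under 4. This share was chosen after the data had been seen. Members formed 132 of these 201 collagen-rich barcodes (65.7%, 58.7 to 72.2). The groups differed in depth, with a median of 14177.5 UMIs in members and 2080.0 UMIs in the others, and a deep barcode reaches a sum of 4 more easily, so values for the 98 members and 17 low-actin barcodes with at least 5000 UMIs are given for the genes that matter most. The collagen-rich members summed to 1830897 UMIs and the low-actin barcodes to 296130. A gene counts as measured below with at least 30 UMIs over both groups. One found only in members reaches this at a lower CPM than one found only in low-actin barcodes. Counts of measured genes can thus include genes that passed through members alone. The gene lists were drawn up with earlier results of these data known, so their counts are a description only.

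Within the collagen-rich low-actin barcodes, genes of the uterine stroma and MEST were found in different barcodes. APOD, which encodes a lipid carrier, gave a UMI in 34 of the 69 and MEST in 22, but both in 1. NR2F2 was found in 21, and 0 of these also held MEST. The 34 barcodes with APOD held 2 actin and desmin UMIs among 213159, or 0.000938% of UMIs, and the 35 without APOD held 44 among 82971, or 0.0530%. In the collagen-rich members that share was 0.565%. APOD was found in 4 of the 132 members, NR2F2 in 4, MEST in 116 and HAND1 in 96, and each of the 4 barcodes with APOD also held MEST. Among barcodes of at least 5000 UMIs, 15 of the 17 low-actin barcodes and 4 of the 98 members held APOD. APOD was among the genes of lowest ratio in members, so the split by APOD was drawn from the same data. It is a description only. The 34 barcodes with APOD gave 213159 of the 296130 UMIs of the low-actin group. Ratios against all 69 thus rest mostly on them, except where values without APOD are given.

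The contractile apparatus was higher in the collagen-rich members beyond the genes of the rule. ACTG2 stood at 3469 CPM against 91.2 CPM, ACTA2 at 2100.1 against 60.8 CPM and DES at 85.8 CPM against 1 UMI, as the rule fixed. TAGLN, which the rule did not use, stood at 1576 CPM (1519 to 1634) against 159 CPM (117 to 211), a ratio of 9.93 (7.45 to 13.5). Over single members TAGLN ran from 0 in 17 barcodes through a median of 859 CPM to 6009 CPM, and in low-actin barcodes its median was 0. MYL9, the regulatory light chain of smooth muscle myosin, was at 392 against 40.5 CPM (9.66-fold, 5.50 to 18.8), and CNN1, calponin, at 129 CPM against 3 UMIs (12.7-fold, 4.30 to 62.1). TPM2 was 7.78-fold (6.097 to 10.1) and TPM1 5.19-fold (3.99 to 6.86) higher. Of 21 measured genes of the contractile list outside the rule, 10 were at least 2-fold higher and 0 at least 2-fold lower, where 9.57% of all 6528 genes were higher and 14.8% lower. The others among the 10 were the actin anchor proteins ACTN1, VCL and SYNPO2, the light chain MYL6 and the tropomyosin TPM4. The list's median log2 ratio was 0.99, against -0.14 over all genes. CALD1 and MYLK, the caldesmon and myosin light chain kinase genes, lay just under 2-fold, and SMTN (smoothelin) pointed down with a ratio of 0.525 (0.367 to 0.764). Many of these genes share the smooth muscle programme with the actins that chose the members, so their ratios are not independent of how the groups were formed. TMM factors in place of total UMIs moved the median log2 ratio of all genes by 0.43, and the share of called genes that were higher from 39.3% to 72.1%, but turned the direction of no called gene named here.

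The contractile difference was also present in barcodes of at least 5000 UMIs. TAGLN stood at 1622 CPM in 98 members and 122 CPM in 17 low-actin barcodes, MYL9 at 396 CPM and 2 UMIs, and TPM2 at 1792 and 210.3 CPM. Of these 17 low-actin barcodes 15 held APOD, so barcodes without APOD were hardly compared at this depth. In the 35 low-actin barcodes without APOD, of any depth (median 1678 UMIs), TAGLN stood at 217 CPM (129 to 343) and MYL9 at 108 CPM over 9 UMIs.

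Fibrillar collagens were carried by both groups, as the collagen share required. COL1A2, outside the rule, was level at 20752 CPM in members and 21122 CPM in low-actin barcodes (ratio 0.982, 0.956 to 1.01). Other matrix genes differed in both directions. The fibrillar chain COL5A2 was 2.65-fold higher in members (2.37 to 2.97) and the fibril-associated COL12A1 2.44-fold (2.09 to 2.87). The basement membrane linker NID2 was 3.43-fold (2.55 to 4.71), LOX 2.31-fold (1.92 to 2.81) and CTHRC1, a secreted collagen-repeat protein, 8.11-fold (4.88 to 14.6) higher. COL6A1 was 2.28-fold lower (2.05 to 2.53), FBLN1 2.90-fold lower (2.66 to 3.16), the gelatinase gene MMP2 6.23-fold lower (5.21 to 7.46) and the adhesive glycoprotein THBS1 27.3-fold lower (22.1 to 33.9). Of 26 matrix proteins and enzymes measured, 5 were at least 2-fold higher and 7 at least 2-fold lower, and of 7 collagens 3 and 1. The shares over all 6528 genes were 9.57% higher and 14.8% lower. Most low-actin UMIs came from the barcodes with APOD, and their part in the matrix ratios was not tested.

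Transcription factors of mesoderm were more often higher than lower in the collagen-rich members. Of 16 measured, 9 were at least 2-fold higher and 2 at least 2-fold lower, with a median log2 ratio of 1.45. Over all 6528 genes 9.57% were higher and 14.8% lower, so the lower count was near that share. The list was drawn up with earlier results of these data known, so its counts are a description only. HAND1, a helix-loop-helix factor of extraembryonic mesoderm and heart, stood at 244 CPM (222 to 267) against 43.9 CPM (23.4 to 75.1), and its relative HAND2 at 86.8 against 37.1 CPM. GATA6 was at 228 against 30.4 CPM. In the low-actin barcodes without APOD, HAND1 stood at 157 CPM (83.4 to 268) and GATA6 at 96.4 CPM (41.6 to 190.0), so HAND1 was not told apart from the members there. TBX20 gave 90 UMIs in members and 1 in low-actin barcodes (14.6-fold, 2.55 to 581), and FOXF1, a factor of visceral and allantoic mesoderm, was 3.18-fold higher (1.42 to 8.84). PRRX1, a limb and fibroblast homeobox gene, showed the reverse, with 0 UMIs in members against 26, which makes it at least 53.6-fold lower against a floor of 3 UMIs, though it lies under the 30 UMIs asked of a measured gene. PRRX2 did not follow it, at 136 against 91.2 CPM (1.49-fold, 1.00 to 2.31). WT1, also under that minimum, had 0 UMIs against 18. MEIS1 and TBX3 were the 2 measured factors that were at least 2-fold lower.

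Of imprinted and early developmental genes, 6 of 10 measured were at least 2-fold higher than in all low-actin barcodes and 0 at least 2-fold lower. The shares over all 6528 genes were 9.57% and 14.8%. These counts too are a description only, since earlier results were known when the list was drawn up. MEST stood at 482 against 203 CPM (2.38-fold, 1.83 to 3.15), PEG10 at 247 against 77.7 CPM (3.18-fold, 2.09 to 5.07), and DLK1, a membrane protein of the Notch ligand family, at 134 against 47.3 CPM (2.83-fold, 1.65 to 5.25). IGF2BP2 and IGF2BP3, which bind RNA in embryonic tissue, were among the 6. The low-actin barcodes without APOD gave 58 of the 60 MEST UMIs, 19 of the 23 PEG10 UMIs and all 14 DLK1 UMIs. There MEST stood at 699 CPM (531 to 904), PEG10 at 229.0 CPM (138 to 358) and DLK1 at 169 CPM (92.2 to 283). By counting error alone MEST was higher there than in members, and PEG10 and DLK1 were not told apart from their levels in members. MEST came from 21 of these 35 barcodes, and the spread between barcodes is not in the intervals. The mean of single barcodes' CPM gave a smaller log2 ratio for MEST, 0.43 in place of 1.25. With each barcode thinned to 2000 UMIs, MEST was found in 52.1% (42.8 to 61.2) of 121 collagen-rich members, 20.0% (8.44 to 36.9) of 35 low-actin ones and 0.971% of 103 T or NK barcodes, which should lack the gene. Before thinning the median depth of the T or NK barcodes was 1930.5 UMIs. HAND1 was found in 38.0% (29.3 to 47.3), 14.3% (4.81 to 30.3) and 0%, where 0 of 103 allows up to 2.91%. For HAND1 the intervals of members and low-actin barcodes overlap. Without thinning MEST was found in 87.9% and HAND1 in 72.7% of the 132 members.

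Genes of the uterine stroma gave few UMIs in the collagen-rich members. APOD gave 5 UMIs there (2.73 CPM, 0.887 to 6.37) and 1965 in the low-actin barcodes (6636 CPM, 6345 to 6936). CYP1B1, a monooxygenase that hydroxylates estrogens, gave 0 UMIs against 415 (at least 855-fold lower), the complement gene C3 gave 6 against 666, and IGFBP5, which binds insulin-like growth factors, 12 against 885. NR2F2, which acts in stromal progesterone signalling, was at 2.18 against 334 CPM (153-fold lower, 57.9 to 573). The estrogen receptor gene ESR1 gave 7 UMIs against 27 (23.8-fold lower, 10.1 to 64.9) and the progesterone receptor gene PGR 1 against 17 (105-fold lower, 16.5 to 4393). FOXO1 gave 9 against 31, OXTR, the oxytocin receptor, 0 against 17, and NR2F1 2 against 24. PGR, OXTR and NR2F1 lie under 30 UMIs and are in no count of measured genes. Of 13 measured genes of this list, 11 were at least 2-fold lower and 2, APOE and HOXA9, at least 2-fold higher, with a median log2 ratio of -3.18. Over all 6528 genes 14.8% were lower and 9.57% higher. This list was drawn up with earlier results of these data known, and most low-actin UMIs came from barcodes with APOD. The counts are thus a description only. HOXA10, a homeobox gene of the uterine tract, was lower but present at 92.3 against 290.4 CPM. The remaining genes at the lower end were PI15, NELL2, RORB, OMD, CD59, ACKR3 and ADGRD1. Among barcodes of at least 5000 UMIs NR2F2 stood at 2.30 against 425 CPM and APOD at 2.88 against 7883 CPM.

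The EL library held 11 collagen-rich barcodes, with 50227 UMIs. CYP1B1 stood there at 1314 CPM (1016 to 1672), against 2.65 CPM over all kept EL barcodes. C3 was at 557 against 10.4 CPM, all from 3 barcodes, and NR2F2 at 159 CPM (68.8 to 314) against 12.2 CPM. ESR1 at 259 CPM (138 to 443) and PGR at 79.6 CPM (21.7 to 204) were not told apart from the 367 and 49.2 CPM of the whole EL library. MEST, HAND1, GATA6, DLK1 and PEG10 had 0 UMIs, where 3 UMIs would be 59.7 CPM. ACTA2 and TAGLN gave 1 UMI each, and ACTG2, DES, MYL9 and CNN1 gave 0.

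**Figure D4:**
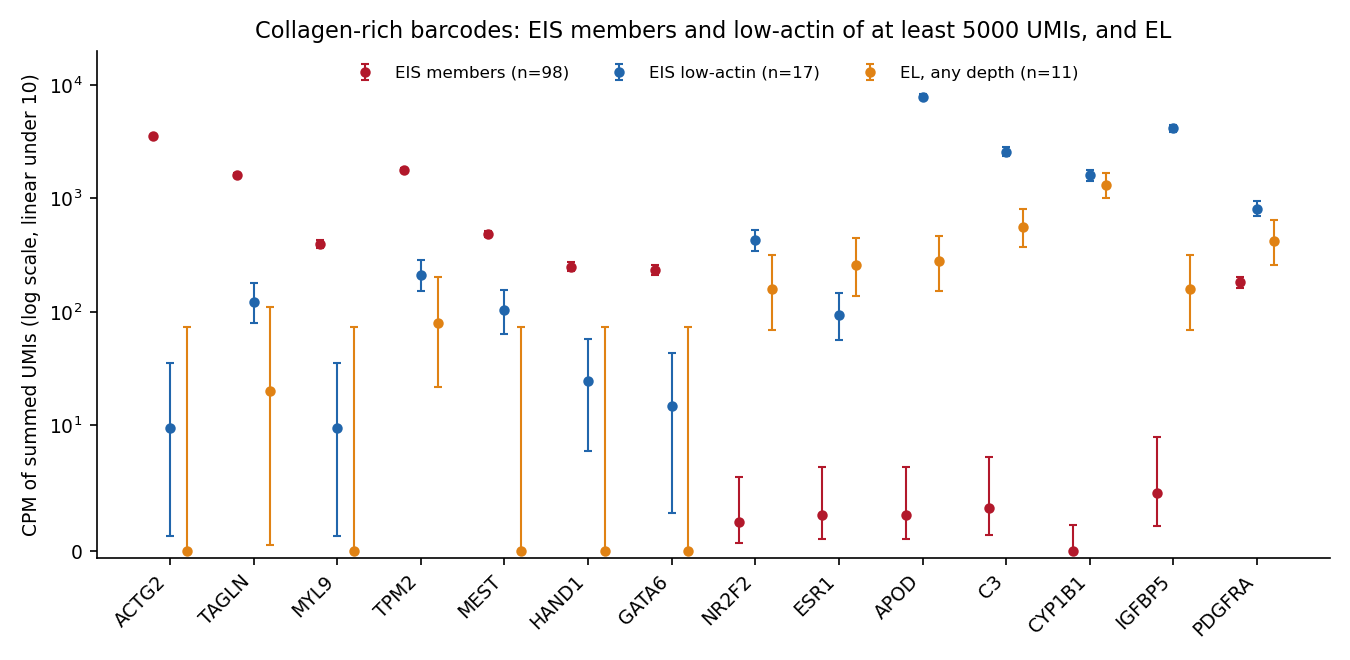
Levels of 14 genes in collagen-rich barcodes, in CPM on a log scale that is linear under 10, for EIS members (98) and EIS low-actin barcodes (17, of which 15 held APOD), both of at least 5000 UMIs, and for EL barcodes of any depth (11). Bars are exact Poisson 95% intervals for counting error. ACTG2 was used to choose the members, who sit above both other groups for TAGLN to GATA6 and below both from NR2F2 to PDGFRA.

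Growth factor genes differed in both directions. PDGFRA, the receptor that marks fibroblasts, was lower but present in members, at 178 CPM (159 to 198) against 769.9 CPM (673 to 877), and it was found in 96 of the 132. The heparin-binding factor MDK was 3.16-fold higher (2.68 to 3.74), while PTN, its relative, was high in both at 4068 and 3120.2 CPM. FGF10, a mesenchymal signal to epithelium, gave 3 UMIs against 29 and FGF2 10 against 21. VEGFA was 2.84-fold lower (1.89 to 4.19). Of 14 ligands and receptors measured, 4 were at least 2-fold higher and 5 at least 2-fold lower, where 9.57% of all 6528 genes were higher and 14.8% lower. In the TGF beta and BMP pathway 2 of 21 measured genes were higher, near the share over all genes, and 5 lower. The receptor TGFBR2 was 8.93-fold lower (5.73 to 14.1) and the ligand TGFB2 4.81-fold lower (2.58 to 8.83), whereas the receptor TGFBR1 was level at 57.3 and 54.0 CPM. Of 14 hedgehog and WNT genes, 1 (the WNT receptor RYK) was at least 2-fold higher, and the WNT ligand WNT2, the secreted WNT binder FRZB and the hedgehog inhibitor HHIP were at least 2-fold lower. Both counts for hedgehog and WNT genes were near the shares over all genes. The part of the low-actin barcodes with APOD in the ratios of this paragraph was not tested.

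Vascular mural genes gave few UMIs in the collagen-rich members. The 17 found among the features summed to 34.4 CPM there and 189 CPM in low-actin barcodes. Only 5 of 10 pericyte markers were found among the features. They summed to 13.1 CPM in collagen-rich members and 23.6 CPM in low-actin ones, against 13.4 CPM in the kept EIS barcodes outside the members. RGS5 gave 5 UMIs and 0, and KCNJ8 and ABCC9 gave 0 UMIs in members. AGTR1, an angiotensin receptor, gave 2 UMIs against 29. Other cell types' markers were low in members as well: the 4 epithelial markers found summed to 97.8 CPM (293.8 CPM in low-actin barcodes), the 8 trophoblast markers to 156 (257) CPM, the 5 macrophage markers to 37.7 (311) CPM, the 9 endothelial markers to 65.0 (30.4) CPM and the 2 mesothelial markers, WT1 and BNC1, to 0 (60.8) CPM. The part of these transcripts in the differences was not tested. SLPI stood at 8495 CPM in members and 17401 CPM in low-actin barcodes, with 4280 of the members' 15553 UMIs in 1 barcode, and its direction turned among barcodes of at least 5000 UMIs, where it was 5899.7 against 2328 CPM.

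Among the remaining genes at the upper end, several act in metabolism and transport. APOE, the lipid carrier apolipoprotein E, stood at 56472 CPM (56129 to 56818) in members, was found in all 132, and ranged over single barcodes from 18969 through a median of 55369.8 to 120440 CPM. In low-actin barcodes it was at 13862 CPM, most of it in those without APOD, where it reached 42195.5 CPM against 2834 CPM in those with APOD. AQP3, a water and glycerol channel, was at 2980.0 against 249.9 CPM (11.9-fold, 9.48 to 15.2). FABP3, a fatty acid carrier, gave 348 UMIs against 2 and came from 42 members, and SERPINE2, a protease inhibitor, gave 246 against 2 from 78 members. WFDC1 was 7.67-fold (5.63 to 10.7) and FGL2 7.89-fold (4.26 to 16.6) higher. Of 12 cell cycle genes measured, 10 were at least 2-fold higher and 1 at least 2-fold lower, where 9.57% of all 6528 genes were higher and 14.8% lower. Of the 15 found among the features 5 gave 0 UMIs in low-actin barcodes, so some could count as measured through members alone. However, UBE2C, a mitotic ubiquitin enzyme, gave 133 UMIs from 14 members, 61 of them from 1 barcode. Of 23 immediate early and stress genes 1 was at least 2-fold higher and 10 at least 2-fold lower, among the latter SOCS3, ZFP36 and the metallothioneins MT1A, MT1D and MT2A. Among barcodes of at least 5000 UMIs the log2 ratios of MT1A and MT1D were 0.027 and 0.27, where they had been -2.39 and -1.86. Of 26 nuclear genes of oxidative phosphorylation, 0 were at least 2-fold higher or lower.

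The 132 collagen-rich members were also ordered by the actin and desmin UMIs that had chosen them, as a description, since contractile genes outside the rule share a programme with those that set the order. Split into 3 equal groups of 44 by the actin and desmin share of UMIs (0.0296 to 0.278%, 0.288 to 0.519% and 0.529 to 1.95%), TAGLN stood at 422, 873 and 2625 CPM and MYL9 at 143, 286 and 588 CPM. TPM2 stood at 809, 1204 and 2553 CPM and CNN1 at 20.4, 77.5 and 218 CPM. DLK1 ran the other way at 254, 126 and 76.6 CPM, as did PEG10 at 381, 240.0 and 182 CPM and PDGFRA at 258, 188 and 130 CPM. HAND1 at 267, 234 and 237 CPM and COL5A2 at 2659, 3140.3 and 2996 CPM differed far less. Median depth was higher along the groups, from 9418.5 through 13712 to 17697.5 UMIs.

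Set against all 1725 low-actin barcodes that passed the collagen limit, all 789 members gave ratios closer to 1 for most contractile and uterine stroma genes named above. The 1725 were mixed as well, with a median collagen share of 0.817% and 13.4% of UMIs from SLPI. Their trophoblast and epithelial marker sums were 4677 and 2243 CPM, against 2710 and 1621 CPM in all members, so this contrast does not set 1 mesenchyme against another. Of 12289 genes, 665 (5.41%) were at least 2-fold higher in members and 384 (3.12%) at least 2-fold lower, with a median log2 ratio of -0.06. Among the 12 largest ratios were AQP3 (6.71-fold, 6.30 to 7.15), TPM2, FXYD1, APOE, GPC1, LGALS1, CTHRC1, WFDC1, FMOD and GATA6 (4.37-fold, 3.64 to 5.26). The smallest were CYP1B1 (10.9-fold lower, 8.17 to 14.7), APOD (10.5-fold lower, 9.22 to 12.1), C3, IGFBP5, CCL8, C1R, CCL4, C1QA, MT1A, C1QB, SLC7A8 and MT1D, which hold complement, chemokine and macrophage genes beside those of the stroma. The macrophage markers summed to 212 CPM in members and 454 CPM in low-actin mesenchyme, and their part in these ratios was not tested. TAGLN was 3.20-fold higher (3.03 to 3.39), with 924 against 288 CPM, and MEST 3.68-fold higher (3.305 to 4.11). NR2F2 was 1.70-fold lower (1.41 to 2.06) here, against 153-fold among collagen-rich barcodes, and PDGFRA, lower there, was 1.23-fold higher (1.08 to 1.41). Of the called genes 63.4% were higher, and 49.5% with totals that leave out genes over 1% of UMIs. Of 22 measured contractile genes 9 were at least 2-fold higher and 0 lower, of 23 mesodermal transcription factors 13 and 2, and of 25 uterine stroma and HOX genes 3 and 4.

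**Figure D5:**
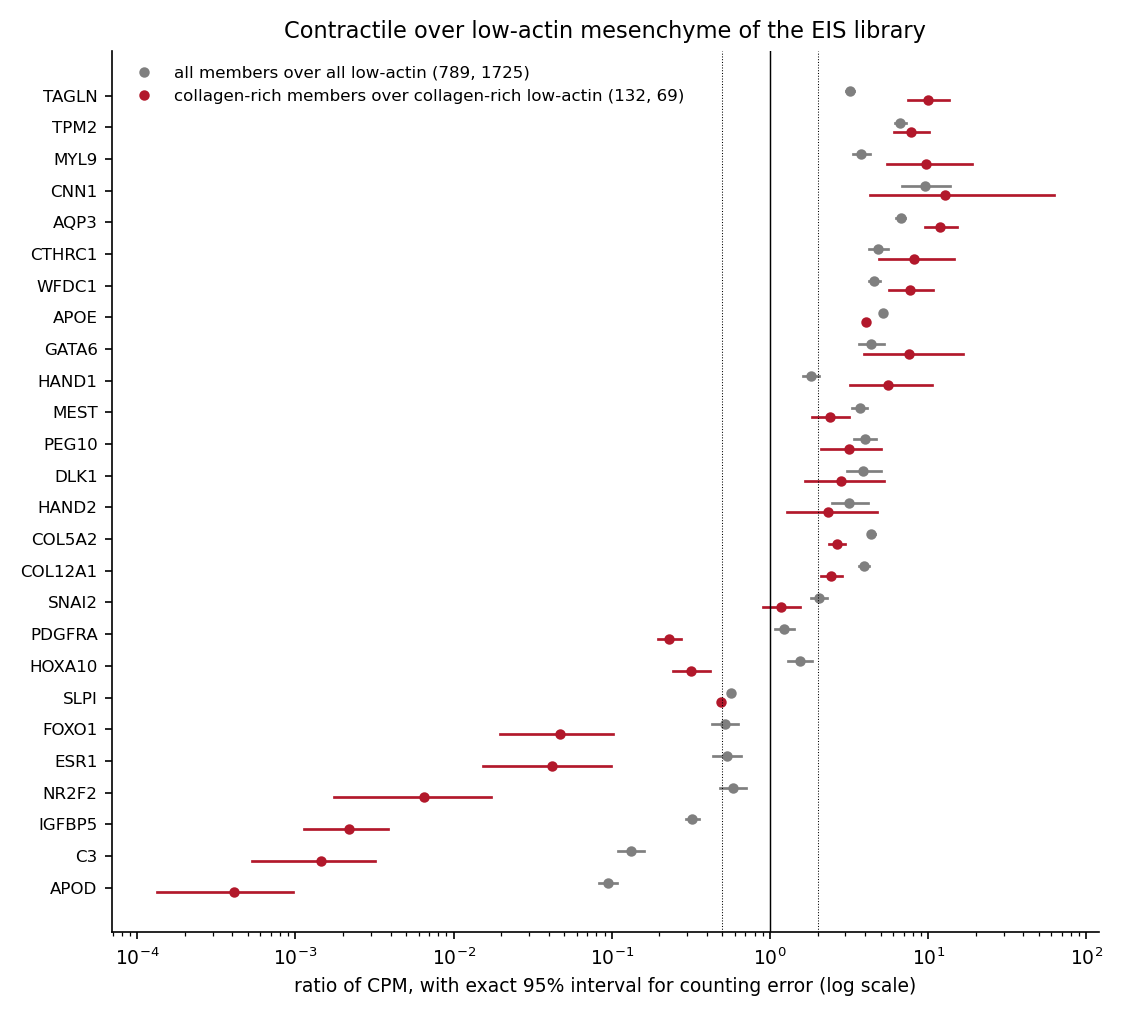
Ratio of CPM in contractile over low-actin mesenchyme of the EIS library, on a log axis, for all members (grey, 789 over 1725 barcodes) and for collagen-rich members (red, 132 over 69). Lines are exact 95% intervals for counting error and dotted lines mark 2-fold. Both sets place TAGLN, TPM2 and MYL9 above 1 and APOD, C3 and IGFBP5 below 1, and the red points of the uterine genes lie further out.

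Actin-positive barcodes with little collagen were rare, at 19 barcodes with 51086 UMIs in all. Their level of ACTG2 was 1801 CPM, against 1805 CPM in all members, and TAGLN stood at 1605 CPM (82 UMIs), above the 924 CPM of members. DCN stood at 157 CPM, as their limit required. SLPI made up 26.5% of their UMIs and their median depth was 995 UMIs, so these barcodes were not a clean smooth muscle reference. Of 10484 genes, 1179 (11.2%) were at least 2-fold higher in members and 951 (9.07%) at least 2-fold lower, but 4712 had 0 UMIs in the 19 barcodes. Called genes were higher in 55.4%, and in 16.9% with totals that leave out genes over 1% of UMIs. Members were higher in AQP3 (13.3-fold, 5.70 to 41.0), COL5A1 (14.5-fold, 7.04 to 36.1) and COL1A2 (18.4-fold, 12.5 to 28.5). COL12A1, LOX and RCN3, an endoplasmic reticulum protein, each gave 1 UMI in the 19, with upper bounds of 562-fold or more. POSTN, the matrix protein periostin, was 45.8-fold lower in members (26.8 to 75.9), with 23 UMIs from 4 of the 19 barcodes. SMPDL3B was 7.10-fold lower, PKIG 7.92-fold lower, and EGFL8, VSTM2L and RIOX1 rested on 6 or 7 UMIs. HAND1, DLK1, PDGFRA and NR2F2 gave 0 UMIs there, where HAND1 was at least 2.58-fold higher in members.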

How the data were processed

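Single-cell libraries of endometrium from 2 sows, 1 per group, were analysed. The deposited matrices hold counts of UMIs per gene and cell barcode, made with Cell Ranger 2.1.1 per the submitters' processing notes, whereas the file headers name cellranger 6.1.0. For the genome build, no name is given in the sources used here. Features numbered 26881, and 16128 of them had an ID but no symbol. Summing those with a shared symbol left 26828. Barcodes with at least 500 UMIs and 300 genes were kept and no doublets were removed. The members and the gene lists were chosen with earlier results of these data known. The collagen share of 4%, the depth of 5000 UMIs and the split by APOD were chosen after seeing the data.

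UMIs were summed per group and scaled to CPM. Levels have exact Poisson, ratios exact conditional and shares exact Clopper-Pearson 95% intervals, and a group at 0 was set to a floor of 3 UMIs over the group. A gene counted as measured with at least 30 UMIs over both groups and was called at a ratio of at least 2 or at most 0.5. With 1 library per group there was no test. The text names the 12 highest and 12 lowest ratios (6 and 6 against the 19 barcodes) of at least 100 CPM, up to 6 genes of each list of at least 50 CPM by size of ratio, a fixed set of markers and rule genes, and the 6 leading genes of each subgroup. Some genes that meet this rule are not reported here. Other list genes named were chosen after their values were seen. T or NK barcodes had at least 4 UMIs of their markers. Members were clustered without the 6 rule genes on 1000 variable genes, 20 components and 15 neighbours at resolution 0.5. The ratio and its interval were tested on simulated data. The tools were scanpy 1.11.5, leidenalg 0.10.2, scipy 1.17.1, numpy 2.4.6 and matplotlib 3.10.9 under Python 3.11.15, with pandas 2.3.3 for tables, and TMM factors from edgeR 4.0.16 and size factors from DESeq2 1.42.0 in R 4.3.3 as alternatives. Other alternatives changed the limits, depth, minimum UMIs, doublets and free RNA.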

Additional observations from a re-analysis of the deposited data

How the results depend on the processing

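No paired analysis was possible because each group has 1 library. The EL library held 0 members under every limit tried, and the EIS library 354 with an actin and desmin sum of at least 8. The causes of the shifts below were not tested. Against all low-actin mesenchyme, where 665 genes were higher and 384 lower, the lower genes were 1104 with members at 8 or more and low-actin barcodes at 0, 584 with totals without genes over 1% of UMIs and 667 with 10% of UMIs taken off as free RNA, and the higher genes were 352 by the mean of single barcodes' CPM. With no minimum above 1 UMI the higher and lower genes were 1496 and 1262, with at least 100 UMIs 421 and 120, and thinned to 2000 UMIs 305 and 164. The log2 ratio of PGR turned to 1.11 when thinned. The share of called genes that were higher, 63.4%, was 44.6% with members at 8 or more, 53.2% with free RNA taken off and 77.8% with at least 100 UMIs.

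Against the 19 actin-positive barcodes, where 1179 genes were higher and 951 lower, the lower genes were 588 with a collagen sum of at least 20, 2012 with totals without genes over 1% of UMIs, 294 with at least 100 UMIs and 1575 by mean CPM. The higher genes were 408 with those totals, whose median shift was -0.67 in log2, and 190 when thinned. Log2 ratios that turned were 0.21 for CNN1 with a collagen sum of at least 20, -0.60 for HAND2 with an actin sum of at least 8, and, when thinned, -1.38 for HAND2, -1.49 for PEG10 and -0.50 for RCN3.

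Between collagen-rich groups, where 625 genes were higher and 965 lower, the counts were 1251 and 484 with TMM factors and 1248 and 488 with the median of ratios. They were 244 and 243 with at least 100 UMIs and 159 and 146 when thinned. With no minimum above 1 UMI in each group 915 were higher and 3727 lower. Among barcodes of at least 5000 UMIs the log2 ratios of MT1A, MT1D and SLPI turned to 0.027, 0.27 and 1.34. Of 1035 alternative values of the 69 called genes that meet the naming rule there, 974 kept a ratio of at least 2-fold and 3 turned. At resolution 1.0 there were 12 subgroups. Unthinned, 83.4% of members held TAGLN, 42.8% MEST, 42.8% HAND1 and 17.4% NR2F2. Depth limits the group of 19 barcodes most.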
